A study of Arabidopsis thaliana with 2 samples.

Results

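Introns that lie wholly inside an annotated exon, the arrangement known from exitrons, numbered 654 among the 8031 new introns of spliced isoforms assembled from Arabidopsis thaliana siliques. They lay in 565 genes. The introns were chosen by their position in the merged set of transcript models: each belonged to a transcript that shares a splice junction with an annotated transcript but differs elsewhere (class code j), was absent from all transcripts that match the annotation (class code =), had neither end in common with an annotated intron of the same strand, and lay inside 1 exon of an annotated transcript of the gene nearest to it, on chromosomes 1 to 5. Their new ends and their place inside an exon are therefore given by the choice and are no finding. The rule has no numeric limit. Just outside it were 188 new introns that lay inside 1 annotated exon of their gene but shared an end with an annotated intron, and 61 introns with both ends new that lay inside an exon of another gene.

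The data come from total RNA of siliques, the seed pods, depleted of ribosomal RNA and sequenced as stranded read pairs. Both of the 2 labelled libraries were made from ago3-3 mutants of the Col-0 accession, with siliques taken 1 to 5 days after pollination, and the study's design also names wild-type Col-0 in duplicate. Argonaute 3, the protein affected in ago3-3, belongs to a family that binds small RNAs. The transcript set was merged for the whole series and carries no value per library, so the depth is unknown, no genotype comparison was possible, and neither the tissue label nor the mutation could be checked against the level of a marker gene or of AGO3. The libraries that entered the merge are a point not given in the sources used here.

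An exitron is a stretch that is exon and intron at once: when it is kept, it is part of an exon, usually coding sequence, and when it is spliced out, the mRNA loses an internal piece. Removal of a piece whose length is a multiple of 3 takes amino acids out of the protein and keeps the reading frame, while any other length shifts the frame and commonly brings an early stop codon. Plant transcripts whose stop codon lies well upstream of the last exon junction are known as targets of nonsense-mediated decay.

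Sequences of coding introns that keep the frame and were held by the most assembled transcripts are shown first, since they show what is removed from the mRNA and, read in frame, from the protein. Ties in the number of transcripts were settled by the longer intron. AT2G19260 stood in 6 transcripts, the next 4 genes in 3 each and NAC007 in 2, as did other introns not shown. Sequence and positions are from the RefSeq genome TAIR10.1, 5′ to 3′ on the strand of the gene, and capitals mark the first 2 and the last 2 bases of the intron, the splice-site letters.
AT2G19260 (chr2:8357475-8357579, plus strand): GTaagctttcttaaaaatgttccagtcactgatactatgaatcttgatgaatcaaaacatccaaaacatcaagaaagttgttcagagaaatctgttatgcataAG
AT3G61690 (chr3:22833087-22833239, plus strand): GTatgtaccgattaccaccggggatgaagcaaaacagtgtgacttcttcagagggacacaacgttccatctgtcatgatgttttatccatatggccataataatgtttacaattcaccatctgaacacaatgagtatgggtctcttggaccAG
ATM (chr3:17814286-17814375, plus strand): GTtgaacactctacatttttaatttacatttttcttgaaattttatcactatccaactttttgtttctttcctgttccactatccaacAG
AT5G49110 (chr5:19905323-19905403, plus strand): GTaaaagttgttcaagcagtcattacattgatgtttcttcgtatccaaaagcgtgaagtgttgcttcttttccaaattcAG
GMI1 (chr5:8259640-8259711, minus strand): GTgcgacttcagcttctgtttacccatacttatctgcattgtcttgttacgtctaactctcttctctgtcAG
NAC007 (chr1:4163370-4163528, minus strand): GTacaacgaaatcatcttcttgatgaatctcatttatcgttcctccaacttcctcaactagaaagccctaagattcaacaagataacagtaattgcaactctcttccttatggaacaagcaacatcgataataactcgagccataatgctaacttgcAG

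Residue counts here and below were worked out by removing the intron alone from an annotated transcript of the gene. They are not the proteins of assembled transcripts. AT2G19260 encodes a protein of the RING/FYVE/PHD zinc finger superfamily. Its intron of 105 nt was held by 6 assembled transcripts, lay in an internal exon of 1640 nt, and its removal took 35 of 631 residues. AT3G61690, annotated as a nucleotidyltransferase, lost 51 of 1303 residues with an intron of 153 nt. ATM (AT3G48190), a kinase of the response to DNA breaks, lost 30 of 2598 residues with an intron of 90 nt that lay in an internal exon of 236 nt. The intron of AT5G49110, annotated as a Fanconi anemia group I-like protein, measured 81 nt and took 27 of 1469 residues. GMI1 (AT5G24280, gamma-irradiation and mitomycin C induced 1) lost 24 of 1598 residues through an intron of 72 nt. In NAC007 (AT1G12260), a transcription factor of the NAC family, 159 nt and 53 of 395 residues were removed from the last exon. Among these 6 introns, that of AT2G19260 was the 1 that is absent from the newer gene annotation that accompanies TAIR10.1. By the same rule AT1G14390, a leucine-rich repeat kinase gene, lost 47 of 728 residues, and AT4G31570, annotated as a nucleoporin, lost 37 of 2730 residues. In AT2G19260, ATM, GMI1 and AT4G31570 every assembled transcript with the intron also differed from the annotated transcripts of the gene in other introns.

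Coding introns of other lengths shifted the frame, and the most widely held of these are shown in the same way.
AT1G50730 (chr1:18797032-18797113, plus strand): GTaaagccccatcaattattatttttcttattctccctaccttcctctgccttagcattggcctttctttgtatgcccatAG
AT1G62920 (chr1:23305097-23305208, plus strand): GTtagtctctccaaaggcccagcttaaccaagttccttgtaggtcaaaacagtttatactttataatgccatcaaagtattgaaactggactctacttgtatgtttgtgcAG

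The intron of AT1G50730, whose protein is uncharacterized, was 82 nt long and was held by 7 transcripts, more than any other of the 654 introns. The annotated transcript without it has 274 residues up to its stop codon, counting new residues after the shift, against 923 in the annotated protein. In AT1G62920, annotated as a proteasome maturation factor, an intron of 112 nt held by 6 transcripts gave a form of 105 residues, counted likewise, against 260 in the annotated protein. RLP14 (AT1G74180), a receptor-like protein, had 2 introns of 104 and 101 nt in its last exon of 2168 nt, each held by 3 transcripts, which gave forms of 480 and 341 residues, counted likewise, against 976 in the annotated protein. For all introns of this paragraph, every assembled transcript with the intron also differed from the annotated transcripts of the gene in other introns.

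The 654 introns were spread thinly over many genes. Of the 565 genes, 487 held 1, 67 held 2 and 11 held 3. Genes with such an intron made up 2.52% of the 22447 nuclear genes that have an annotated transcript of several exons. The share was 2.89% on chromosome 1, 2.64% on chromosome 2, 2.13% on chromosome 3, 2.50% on chromosome 4 and 2.36% on chromosome 5. Protein-coding genes numbered 548 of the 565, beside 11 lncRNA genes. The introns were held by 716 of the 9600 class j transcripts on these chromosomes, and 588 of the 654 introns stood in 1 transcript each. For 498 introns at least 1 transcript had, apart from such introns, the same introns as an annotated transcript of the gene over its own span. Such a transcript could still start or end elsewhere, or lack further annotated exons. For 620 introns, every annotated transcript that overlapped them had them inside an exon. Introns of 1 gene are not independent: 92 of the 654 overlapped another of them, and 80 shared 1 end with another.

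Several introns with a shared end were seen within 1 exon in genes with 3 introns. AT3G05345, a DnaJ-domain protein gene, had introns of 107, 101 and 71 nt across its start codon that shared their donor end. AT5G55840, a pentatricopeptide repeat (PPR) gene, had introns of 76, 87 and 123 nt in a 3′ UTR exon of 330 nt, again with a shared donor. AT1G35710, a leucine-rich repeat kinase gene, held 2 introns with 1 donor in its first exon of 3076 nt. The shorter, of 522 nt, removed 174 of 1120 residues in frame, and the longer, of 953 nt, was the longest of all 654. AT5G40830, annotated as a methyltransferase, had 3 coding introns side by side in its last exon. Those of 102 and 132 nt kept the frame, and that of 76 nt shifted it, with 276 residues up to the stop, new ones included, against 414 in the annotated protein. In HAB2 (AT1G17550), a protein phosphatase of abscisic acid signalling, the first exon of 1299 nt held introns of 208 and 150 nt in the 5′ UTR and 1 of 82 nt in the coding sequence.

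Most of the introns were short. Lengths ran from 54 to 953 nt with a median of 109 nt (quartiles 88 and 150 nt), against a median of 100 nt (quartiles 86 and 174 nt) in 127854 annotated introns. Between 60 and 200 nt lay 557 of the 654 introns (85.2%), against 77.9% of annotated introns. Other new introns with both ends new, 1664 in number, had a median of 188.5 nt (quartiles 106 and 383 nt). The median of the introns inside exons lay closer to that of annotated introns than to that of these. An intron inside an exon cannot be longer than its exon, a limit that the rule did not set for the others. Lengths were described and not tested. The shortest, of 54 nt, lay in NUC-L1 (AT1G48920), which encodes nucleolin, a protein of ribosome production, and in AT4G35940. The longest after that of AT1G35710 measured 902 nt in AT5G22730, an F-box gene, and 877 nt in NUDX15, a nudix hydrolase gene.

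**Figure D1:**
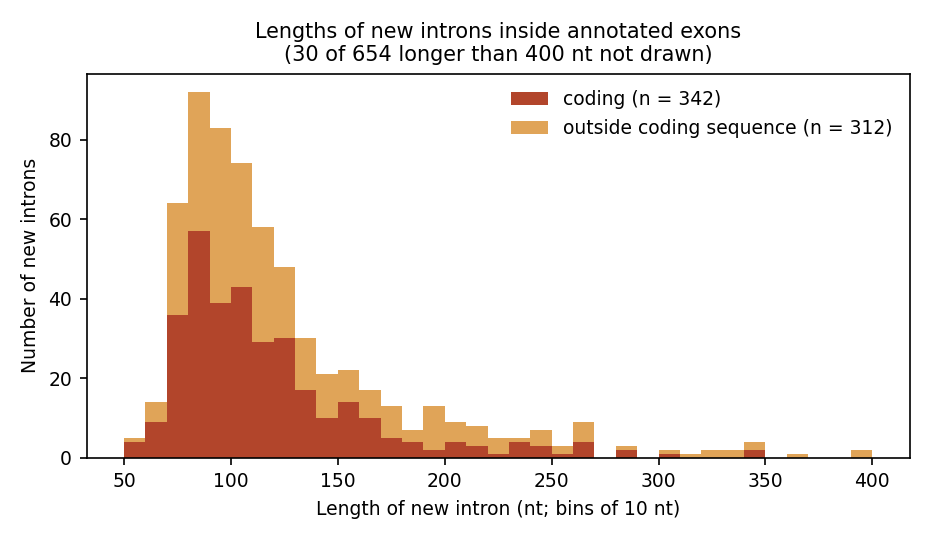
Number of introns inside annotated exons (vertical axis) by length in bins of 10 nt (horizontal axis), stacked as 342 coding introns and 312 outside wholly coding sequence, with 30 introns over 400 nt not drawn. The fullest bin starts at 80 nt and holds 92 introns, and the median is 109 nt.

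The exons that held the introns were long for their class. This is in part given by the choice, since an intron had to fit inside its exon. The shortest host exon measured 114 nt. Internal exons held 236 introns (36.1%), first exons 205 (31.3%), last exons 208 (31.8%) and annotated transcripts of 1 exon 5. For 23 introns the class differed between annotated transcripts. Host exons had a median length of 528 nt among internal exons, against 117 nt for internal exons of 1 annotated transcript per gene. For last exons the medians were 674.5 nt in host exons and 392 nt in all, and for first exons 562 nt in host exons and 251 nt in all. Per Mb of annotated exon sequence, counted in 1 transcript per gene, first exons held 26.4 introns (95% interval 22.9 to 30.3), last exons 18.8 (16.3 to 21.5) and internal exons 14.0 (12.2 to 15.9). These Poisson intervals cover counting error only. They also treat the introns as independent, although 92 overlapped another and 80 shared 1 end with another, so they are too narrow. The intervals of last and internal exons lay close, with limits of 16.3 and 15.9 per Mb, so a difference between these classes is not shown. The densities count all exon sequence, including that of exons too short to hold such an intron, and exon length differs between the classes. The part of exon length in this order was not tested. An intron took a median of 20.9% of its exon, from 1.93% to 83.6%.

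Genes with a longer longest exon held such introns more often. The share of genes was 0.297% (5 of 1684) where the longest exon was under 250 nt, 1.33% (115 of 8658) from 250 to under 500 nt and 2.83% (231 of 8160) from 500 to under 1000 nt. It was 5.01% (165 of 3294) from 1000 to under 2000 nt and 7.53% (49 of 651; exact 95% interval 5.62 to 9.83%) from 2000 nt upward. The room for an intron inside an exon also grows with exon length, and its part in this order was not tested. By exon number the range was narrower and the rise was not steady. The share was 1.68% of genes with 2 exons, 2.33% with 3 to 5, 3.08% with 6 to 10 and 2.70% with 11 to 20. With 21 or more exons it was 4.86% (25 of 514, exact 95% interval 3.17 to 7.10%).

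**Figure D2:**
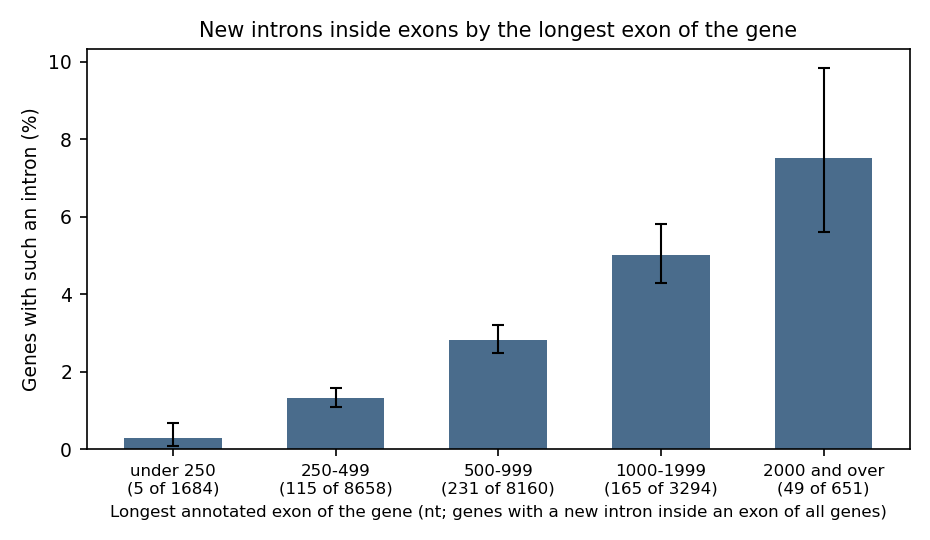
Share of genes with at least 1 intron inside an annotated exon (vertical axis, percent) by the length of the longest annotated exon of the gene (horizontal axis, nt), with exact 95% intervals. The share is 0.297% under 250 nt and 7.53% from 2000 nt upward.

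By the newer annotation most of the introns lay wholly inside coding sequence: 342 of 654 (52.3%, exact Clopper-Pearson 95% interval 48.4 to 56.2%), in 312 genes. The 5′ UTR held 107 (16.4%) and the 3′ UTR 89 (13.6%). Another 40 ran across the start of the coding sequence and 30 across its end, 23 lay in transcripts with no coding sequence and 23 lay in no single exon of the newer annotation. Internal host exons were mostly coding, with 187 of 236 introns in coding sequence. First exons held 67 coding introns and 98 in the 5′ UTR, and last exons held 85 coding introns and 68 in the 3′ UTR.

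Coding introns were more often a multiple of 3 in length than the others. Of the 342 coding introns 145 were divisible by 3 (42.4%, 37.1 to 47.8%), against 94 of the 312 outside wholly coding sequence (30.1%, 25.1 to 35.6%). The difference was 12.3 percentage points (Fisher's exact test, two-sided, p = 0.00116, adjusted p = 0.00175 over 6 share tests). Annotated coding introns of the same genes were divisible by 3 in 1212 of 3495 cases (34.7%, 33.1 to 36.3%), and coding introns inside exons exceeded them by 7.72 points (Fisher's exact test, p = 0.00529, adjusted p = 0.00635). Remainders of 1 and 2 were left by 103 (30.1%) and 94 (27.5%) of the coding introns, against 111 (35.6%) and 107 (34.3%) of those outside coding sequence. All p-values count introns, several of which share a gene, so they are too small, and they describe the merged set and not the spread between plants.

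**Figure D3:**
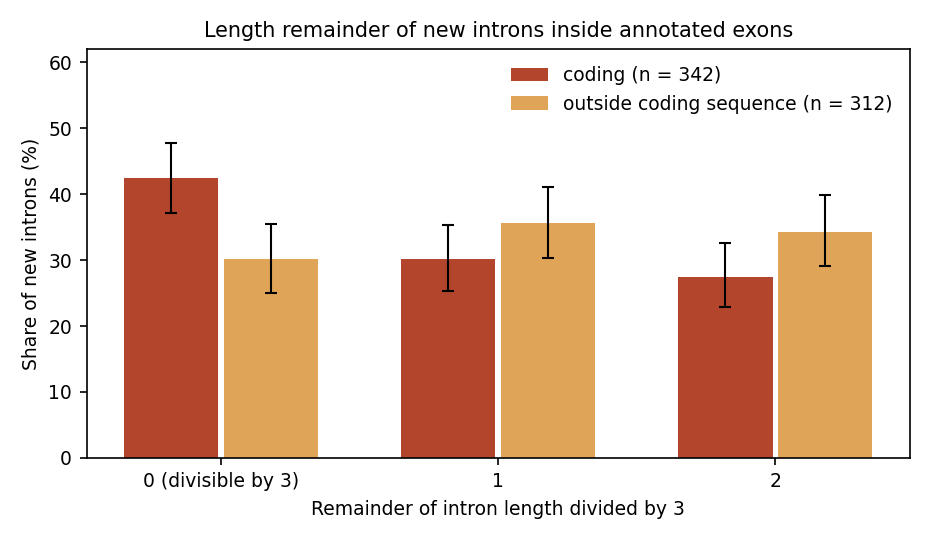
Share of introns (vertical axis, percent, exact 95% intervals) by the remainder of their length on division by 3 (horizontal axis), for coding introns inside exons and for those outside wholly coding sequence. Remainder 0 holds 42.4% of the coding introns and 30.1% of the others.

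The outcome for the protein could be read for 341 of the 342 coding introns, whose annotated frame ran from ATG to a stop, and the classes given here do not cover all of them. Outcomes were worked out by removing each intron alone from an annotated transcript, and were not read from assembled transcripts. Removal kept the frame in 144 (42.2%), with a loss of 18 to 231 residues, median 38. The loss was 1.15% to 54.7% of the protein, median 6.52%. In 193 (56.6%) the frame shifted to an early stop, which in 139 of them lay more than 50 nt upstream of the last exon junction. Over the forms with a shifted frame, early or later stop, the residues up to the stop, new ones included, came to a median of 40.2% of those of the annotated protein (quartiles 22.5 and 63.1%). In 3 the shifted frame ran to a later stop. Coding introns began at a median of 37.3% of the coding sequence (quartiles 18.7 and 57.6%). Chosen after their values were seen, the largest losses among introns that kept the frame were 231 of 422 residues in AT5G56420, an F-box gene, and, through an intron of 603 nt with GC-AG ends, a stretch of HSP81-3 (AT5G56010), a chaperone of the HSP90 type.

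The place in the codon was read for each coding intron and for annotated introns of the same genes. Between the first and second base of a codon (phase 1) lay 170 of 342 (49.7%, 44.3 to 55.1%), against 21.6% of the 3495 annotated coding introns. Between codons (phase 0) lay 107 (31.3%), against 57.1% of the annotated introns, and after the second base (phase 2) lay 65, against 747 of the 3495 annotated introns. Among the 145 divisible by 3, 85 were in phase 1 (58.6%), and among the 197 others 85 were (43.1%). For scale, 34.7% of the 37731 GT dinucleotides in the coding sequences concerned stood in phase 1 and 40.1% in phase 0. Phase was described and not tested.

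In base composition the introns lay between annotated introns and exon sequence. Their GC content had a median of 37.4% (quartiles 34.0 and 41.3%), against 32.8% in annotated introns and 41.7% in the rest of the exons that held them. GC was lower than in the rest of the same exon for 509 of 654 introns. By region the median was 40.4% in coding introns, against 42.4% in the rest of their exons, with 236 of 342 lower. In the 5′ UTR the medians were 33.8% in the introns and 40.2% in the rest of the exon, with 99 of 107 lower, and in the 3′ UTR 34.0% in the introns and 39.4% in the rest, with 75 of 89 lower. The median T content was 32.6% in coding introns, 41.6% in 5′ UTR introns and 39.3% in 3′ UTR introns, against 40.7% in annotated introns.

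**Figure D4:**
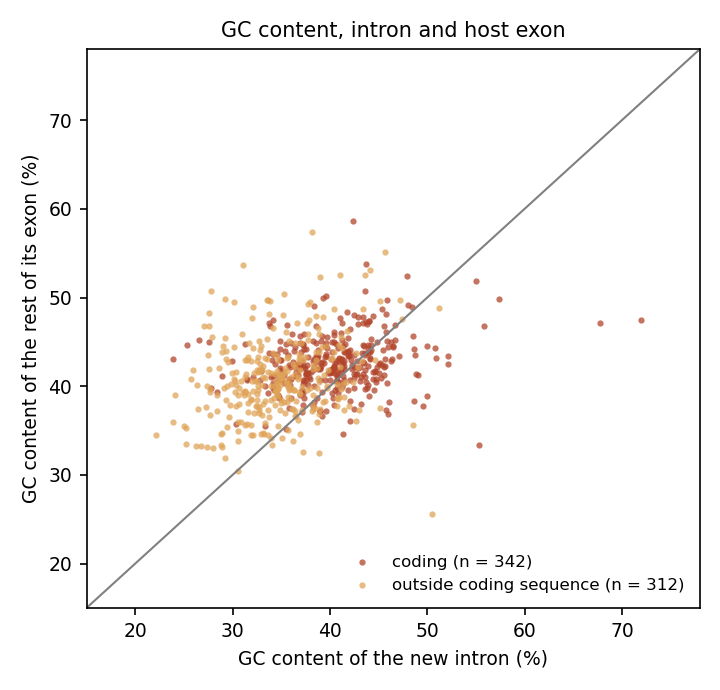
GC content of each of the 654 introns (horizontal axis, percent) against that of the rest of its exon (vertical axis, percent), for coding introns and for those outside wholly coding sequence, with the line of equal values. Above the line, with a lower GC content in the intron, lie 509 points.

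Splice-site letters were GT-AG in 611 of the 654 introns (93.4%, 91.2 to 95.2%), against 126270 of 127854 annotated introns (98.8%). The difference was -5.34 points (Fisher's exact test, two-sided, p = 4.20e-18, adjusted p = 2.52e-17). Other new introns with both ends new had GT-AG ends in 1550 of 1664 cases (93.1%, 91.8 to 94.3%), and the difference of 0.276 points did not pass Fisher's exact test (adjusted p = 0.855). Processing settings, not given in the sources used here, limit the letters that new introns can have. Their part in these shares was not tested. GC-AG ends were found in 21 introns (3.21%), against 1.04% of annotated introns, and AT-AC ends in 8 (1.22%), against 0.0610% of annotated introns. Another 14 (2.14%) had other letters, 4 of them CT-AC, which read as GT-AG on the opposite strand. The 4 coding introns among these 14 lay in AT5G27650 (GT-GT), AT1G78750 (GT-AC), AT2G40260 (GA-AG) and AT3G19900 (GT-GC).

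The sequence around GT-AG ends resembled that of annotated introns less closely, above all at the acceptor. A score summed, over the bases around each border, the log2 of the base's share in annotated GT-AG introns divided by 0.25. The donor score covered 3 exon and 6 intron bases, and the acceptor score 15 intron bases and 1 exon base. The median donor score was 6.08 (quartiles 4.42 and 7.63), against 7.09 (5.55 and 8.56) in annotated introns, and the median acceptor score was 5.55 (3.40 and 7.87), against 7.98 (5.93 and 9.87). Other new GT-AG introns with both ends new had median donor and acceptor scores of 6.91 and 7.13. Scores below those of the introns inside exons were found at other new ends. The median acceptor score was 5.07 where the acceptor alone was new, and the median donor score 5.39 where the donor alone was. Below the 10th percentile of annotated introns lay 119 donors (19.5%) and 191 acceptors (31.3%) of the 611. G at the fifth intron base was as frequent, at 49.1% against 49.5% in annotated introns. Other usual donor bases were less frequent. A stood at the third intron base in 56.8%, against 65.5% in annotated introns, and at the fourth in 47.5%, against 53.4%. The last exon base was G in 72.0%, against 76.2% in annotated introns, and the base before it was A in 55.8%, against 63.1%. G as the first exon base after the intron was also less frequent, at 32.6% against 51.4% in annotated introns. T made up 42.5% of the bases at positions -15 to -4, against 49.2% in annotated introns. Acceptor scores had a median of 5.08 in coding introns and 6.73 in 5′ UTR introns. The score was built on the annotated introns, and no test was run on it.

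A few introns were flanked by direct repeats, so that their borders could be placed at several positions with the same spliced product. A repeat of at least 6 nt was found at 16 of the 654 borders (2.45%), against 2.48% of annotated introns. Of the 16, 11 were coding, 10 were divisible by 3 and 0 were in the newer annotation, against 171 of the 638 with a shorter repeat or none. GT-AG ends stood at 10 of the 16 and GC-AG or AT-AC ends at the others. At such repeats the letters depend on where the border was placed. The median GC content of the 16 was 43.8%. The longest repeat, of 25 nt, lay at the 54 nt intron with AT-AC ends in AT4G35940. At the 57 nt intron with GC-AG ends in GRP23 (AT2G32690, glycine-rich protein 23) it was 11 nt. Both are shown with their flanks beside NUC-L1, the shortest intron with GT-AG ends. Capitals mark both copies of the repeat in AT4G35940 and GRP23, and the first 2 and last 2 intron bases in NUC-L1.
AT4G35940 (chr4:17022672-17022750, plus strand): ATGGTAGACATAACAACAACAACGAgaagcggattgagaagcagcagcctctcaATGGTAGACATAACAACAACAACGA
GRP23 (chr2:13864283-13864350, minus strand): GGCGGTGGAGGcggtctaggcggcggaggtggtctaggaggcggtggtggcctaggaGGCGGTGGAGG
NUC-L1 (chr1:18101106-18101159, plus strand): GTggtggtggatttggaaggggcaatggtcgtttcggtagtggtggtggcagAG

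The GC content of the GRP23 intron was 71.9%, against 47.5% in the rest of its exon. In NUC-L1 it was 57.4%, against 49.8% in the rest of the exon, and 18 of 557 residues were removed in frame. Its donor score of 0.03 and acceptor score of -2.08 were below the 10th percentiles of annotated introns, 3.98 and 3.93. ERD10 (AT1G20450), a dehydrin gene induced by drought and cold, held a coding intron of 129 nt with GC-AG ends and a repeat of 14 nt, and was chosen after its value was seen.

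Of the 654 introns 171 (26.1%, 22.8 to 29.7%) are introns of the newer gene annotation (the rule did not use it). Among the 1664 other new introns with both ends new the share was higher, at 44.2%. It was 17.1% where the acceptor alone was new, 24.6% where the donor alone was and 23.5% in new pairings of annotated ends. These shares were not tested. Among introns inside exons, coding ones were found in the newer annotation less often: 63 of 342 (18.4%, 14.5 to 22.9%), against 108 of 312 outside wholly coding sequence (34.6%, 29.3 to 40.2%). The difference was -16.2 points (Fisher's exact test, two-sided, p = 3.20e-06, adjusted p = 9.59e-06). The share in the 5′ UTR was 42.1% (45 of 107) and in the 3′ UTR 22.5% (20 of 89). The region itself was read from the newer annotation, and without the 23 introns that lie in none of its single exons the difference was -15.1 points (Fisher's exact test, adjusted p = 4.50e-05), an alternative chosen after seeing the data. Within the coding introns, those divisible by 3 were present in 39 of 145 cases (26.9%, 19.9 to 34.9%), against 24 of 197 (12.2%, 7.96 to 17.6%) for those of other lengths. That difference was 14.7 points (Fisher's exact test, p = 0.000663, adjusted p = 0.00133).

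Presence in the newer annotation also moved with other features of the introns, given here as a description. Of the introns held by 2 or more transcripts 34 of 66 were present (51.5%), against 137 of 588 held by 1 (23.3%). Introns with GC below the rest of the exon were present in 29.1% of 509 cases, against 16.0% of the 144 with GC above it. The ends were GT-AG in 167 of the 171 present. Of the 14 introns with letters other than GT-AG, GC-AG and AT-AC, 0 were present. The median acceptor score was 6.79 in GT-AG introns that are present, against 5.17 in those absent, and the median donor score was 6.39 in those present, against 5.97 in those absent.

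**Figure D5:**
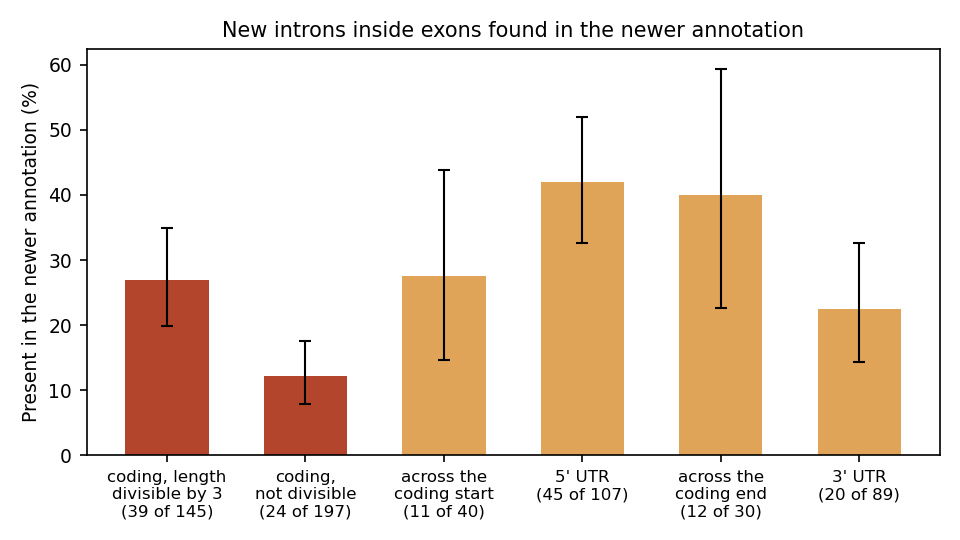
Share of introns inside exons that are introns of the newer annotation (vertical axis, percent, exact 95% intervals), by region and, for coding introns, by divisibility by 3. The share is 26.9% in coding introns divisible by 3, 12.2% in other coding introns and 42.1% in the 5′ UTR.

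The share of genes with such an intron was counted for 12 gene families named from product names. Disease resistance genes, whose products recognise pathogens, held such an intron in 12 of 142 genes (8.45%, 4.44 to 14.3%), with a median longest exon of 1221 nt. Their 18 introns included 14 coding ones, of which 1 was divisible by 3. RPS6 (AT5G46470), a resistance gene against Pseudomonas syringae, held 3, of which the coding one of 82 nt shifted the frame, so that the form without it has 489 residues up to its stop, new ones included, against 1127 in the annotated protein. PPR genes, whose products bind organelle RNA, held introns in 9 of 115 genes (7.83%), with a median longest exon of 1208 nt, and 3 of their 15 introns were coding. Protein kinase genes held them in 50 of 1188 genes (4.21%), with a median longest exon of 660.5 nt, 36 of 57 introns coding and 16 of these divisible by 3. Helicase genes stood at 4.88% (6 of 123; longest exon 653 nt) and glycine-rich protein genes at 3.92% (2 of 51; 496 nt). F-box genes held introns in 13 of 372 genes (3.49%), with a median longest exon of 867.5 nt and 16 of 18 introns coding. Zinc finger genes stood at 3.61% (14 of 388) and genes of RNA-binding and splicing proteins at 2.96% (9 of 304). Heat shock and chaperone genes came to 2.10% (5 of 238). Genes of cell wall proline-rich, extensin and arabinogalactan proteins came to 1.54% (2 of 130). Transcription factor and DNA-binding genes stood at 2.03% (16 of 788), and ribosomal protein genes, with a median longest exon of 378 nt, at 1.30% (4 of 308). Over all genes with several exons the share was 2.52%, with a median longest exon of 531 nt. No test was made between families.

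Genes of small RNA pathways, splicing and silique development were looked up by list, beside the 2.52% of all genes. Of 27 genes of small RNA biogenesis and DNA methylation 2 held an intron inside an exon. CLSY1 (named CHR38 in the reference, AT3G42670), a chromatin remodeller of RNA-directed DNA methylation, had a coding intron of 89 nt (chr3:14758334-14758422, minus strand) in an internal exon of 1416 nt. The annotated transcript without it has 503 residues, new ones included, up to a stop 235 nt upstream of the last junction, against 1256 residues in the annotated protein. The assembled transcript with the intron also differed from the annotated transcripts of the gene in other introns. DRD1 (AT2G16390), another remodeller of that pathway, had an intron of 226 nt (chr2:7097440-7097665, plus strand) across the start of its coding sequence that is present in the newer annotation. Of 20 SR splicing factor genes 1 held an intron: in RSZ22a (AT2G24590) 112 nt of the 3′ UTR (chr2:10451068-10451179, plus strand) ended 5 nt before the end of the last exon. The 10 AGO genes, 14 other splicing regulators, 13 clock genes, 33 regulators of embryo, endosperm, seed coat and fruit and 5 genes of seed storage proteins and oleosins, counting those with several exons, held 0.

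Introns closest to the border of their exon included that of UMAMIT38 (AT4G15540), a transporter gene of the EamA-like family. Its 85 nt ran to the last base of an internal exon of 114 nt, at 0 nt from the exon end. Every assembled transcript with this intron also differed from the annotated transcripts of the gene in other introns. In XT2 (AT4G02500), a xylosyltransferase of xyloglucan synthesis, and in BON2 (AT5G07300), a copine, an intron in the 5′ UTR began 1 nt after the exon start. Each lay in a first exon, so 1 base of the annotated transcript preceded it. Where the assembled transcripts with these introns start is not given here. Over all 654 introns the distance had a median of 165 nt to the exon start and 209.5 nt to the exon end.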

How the data were processed

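The authors deposited 1 merged set of transcript models, a table of exon positions with a class code and the nearest annotated transcript, and no value per library. CASAVA 1.8, TopHat2 and Cufflinks, and build TAIR10, are named in the submitters' processing notes, with settings, which limit intron length and splice-site letters, and further versions not given in the sources used here. Introns were read as gaps between exons with Python 3.11.15, pandas 2.3.3 and SciPy 1.17.1. Sequence, regions and product names came from RefSeq TAIR10.1: 99.0% of 127854 annotated nuclear introns are in its newer annotation, and 32799 of 32803 shared genes overlap in position and strand. Regions used the lowest-numbered transcript with the intron inside 1 exon. Annotated coding introns used for comparison are in the newer annotation by construction.

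Fisher's exact test, two-sided, was run on shares, with Benjamini-Hochberg adjustment over 6 tests (threshold 0.05). Exact Clopper-Pearson 95% intervals cover counting error only. Scripts were tested on simulated data. Members and lists were chosen with earlier results of these data known. Named were the genes with the most introns, the 5 longest and 5 shortest introns, the coding introns in the most transcripts (8 in frame, 4 not), coding introns with unusual ends (4 existed for the 5 planned), list genes, and the 4 introns nearest an exon end. Of the 125 list genes, 121 had their symbol among the reference names. Not all named genes are described. The outcome of 1 coding intron is not reported here.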

Additional observations from a re-analysis of the deposited data

Results flagged for a closer look

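Transcripts that overlap annotated exons without a shared splice junction (class code o) were not used in the report. Inside an annotated exon of their nearest gene they held 399 introns in 206 genes, a signal in data outside the main measurement. Genes with annotated transcripts of 1 exon alone, which cannot have a class j transcript, numbered 199 of the 206 and held 388 of the 399 introns. Their median length was 122 nt, 129 were divisible by 3, 376 had GT-AG ends, 102 were coding, 155 are in the newer annotation, and 2 were also among the 654.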

How the results depend on the processing

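Every one of the 6 share tests, and the counts of introns and genes, kept its direction and its side of the threshold (counts: within 1.5 times) under each alternative run: 1 intron per gene, introns inside an exon of every overlapping annotated transcript, introns of at least 60 nt, the 3 usual kinds of ends alone (not run for the tests on ends), no read-through transcripts, and no border repeats of 6 nt or more. With the 1 alternative added after seeing the data included, the excess of coding introns divisible by 3 over those outside coding sequence ran from 11.4 to 13.3 points (adjusted p 0.000994 to 0.00441), and that over annotated coding introns from 6.75 to 8.42 points (adjusted p 0.00467 to 0.0214). The difference in GT-AG ends ran from -5.54 to -4.59 points against annotated introns, and from 0.0768 to 1.73 points against other introns with both ends new (adjusted p 0.226 to 1). Presence in the newer annotation differed by -17.2 to -15.1 points between coding introns and those outside coding sequence (adjusted p 4.21e-06 to 5.26e-05), and by 14.6 to 16.1 points between coding introns divisible by 3 and the others (adjusted p 0.000676 to 0.00179). The number of introns ran from 565 (1 per gene) to 649 and of genes from 538 to 565. No paired analysis was possible because the labelled libraries form 1 group and the merged set has no column per library; for the same reason no replicate could be left out. Depth is unknown, so an intron that is missing here cannot be told from one that was not covered.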
